A study of Mus musculus with 10 samples.

Results

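Co-stimulatory and checkpoint molecules are surface proteins through which myeloid cells and lymphocytes raise or restrain each other's activity. The set held 8 genes, Cd80, Cd86, Icosl, Cd40, Cd274, Pdcd1lg2, Lag3 and Havcr2, listed by name and not by their values. They were read by 9 of the 24567 probes of the array, namely every probe that the platform annotation gives to 1 of these genes alone, among 19749 genes named in that way. Cd80 had 2 probes and the other genes 1 each.

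The 10 arrays hold total RNA of microglia, the resident macrophages of the brain, sorted by flow cytometry from male mice 8 to 12 weeks of age. Trem2-/- mice lack Trem2, a lipid-sensing receptor of microglia, and C57BL/6 mice (WT) were the comparison. Cuprizone is a copper chelator whose feeding kills oligodendrocytes and removes myelin. For each genotype there were 5 arrays: 1 control without cuprizone, 1 after 4 weeks and 1 after 12 weeks on a 0.2% cuprizone diet, and 1 after each feeding time followed by 2 weeks of normal food, called recovery here. The sources used here do not give the sort markers, the Trem2 allele or whether animals were pooled. No label names replicate animals, so the p-values below measure only the spread between these samples, part of which may be technical. Where groups of genotype and phase were compared, the 2 arrays of a cuprizone or recovery group differ in feeding time. Unless feeding time was a block, the spread in those comparisons includes that difference. The number of arrays limits the precision of every value.

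Trem2 itself lay between 7.26 and 7.85 on the Trem2-/- arrays and between 10.66 and 10.81 on the WT arrays, in log2 intensity. One Trem2-/- array is titled 12 weeks but its other labels say 4 weeks. It was counted as 12 weeks. The submitters' sample numbers fall into 2 runs, 6 arrays with the controls and all 4-week titles and 4 arrays with all 12-week titles, so feeding time and run cannot be told apart and no control belongs to the second run. All 7 measured microglia markers exceeded the table median of 5.27 on every array. T cell markers did so for 0 or 1 of 6 genes per array, NK cell markers for 0 or 1 of 4, B cell markers for 1 of 4, conventional dendritic cell markers for 4 or 5 of 9 and plasmacytoid dendritic cell markers for 2 or 3 of 4. Neutrophil markers summed to 4196 to 12454 units of linear intensity in the first run and to 170 to 326 in the second.

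T cells need a signal through CD28 beside that of their antigen receptor. CD80 and CD86 on antigen-presenting cells give that signal, and CTLA4 competes for both. ICOSL binds ICOS, and CD40, a TNF receptor family member, is engaged by CD40L on T cells and signals through TRAF adaptors to NF-κB. The ligands PD-L1 (Cd274) and PD-L2 (Pdcd1lg2) engage PD-1 and restrain T cells. LAG3, which binds MHC class II, and TIM-3 (Havcr2), which binds galectin-9 and phosphatidylserine, are inhibitory receptors best known from T cells and also described in mouse microglia.

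Cd274 and Pdcd1lg2 are neighbouring, related genes on mouse chromosome 19, the first being the member with the widest range over the arrays and the second the member below the table median on every array. The 250 bases before their annotated starts are shown to set the pair side by side, from RefSeq on build GRCm38.p6, both on the plus strand. The windows are chr19:29367188-29367437 for Cd274 and chr19:29410669-29410918 for Pdcd1lg2. Capitals mark a match, on either strand, to the interferon-response core GAAANNGAA.
Cd274: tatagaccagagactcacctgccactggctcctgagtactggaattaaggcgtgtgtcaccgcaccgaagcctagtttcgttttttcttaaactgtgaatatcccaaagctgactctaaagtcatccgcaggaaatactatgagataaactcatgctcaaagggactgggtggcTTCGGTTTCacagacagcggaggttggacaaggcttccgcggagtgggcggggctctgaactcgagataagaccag
Pdcd1lg2: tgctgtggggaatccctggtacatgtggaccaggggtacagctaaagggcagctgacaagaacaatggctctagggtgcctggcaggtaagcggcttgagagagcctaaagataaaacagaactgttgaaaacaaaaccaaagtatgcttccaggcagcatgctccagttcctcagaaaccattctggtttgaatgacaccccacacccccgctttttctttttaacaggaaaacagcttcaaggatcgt
The Cd274 window held 1 match, TTCGGTTTC, from 76 to 68 bases before the start, and the Pdcd1lg2 window held 0. Among 32851 mouse promoter windows of the same length, 7.13% held that motif. Pdcd1lg2 held 1 match to the NF-κB consensus, from 244 to 235 bases before its start, and Icosl held 1, from 111 to 102 bases before its start, as did 7.25% of all windows. The STAT site TTCNNNGAA was in no member's window and in 7.02% of all windows. The search covered both strands, and a match describes letters only. Promoters were matched for 5 of the 8 genes, and Lag3, Cd86 and Cd40 were not matched.

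Of the 8 genes, 7 entered the tests, together with 10792 genes in all. Genes were tested when at least 2 arrays exceeded the table median. Pdcd1lg2 lay below that median on all 10 arrays and was not tested. Differences are given as log2 intensity from limma with their standard error (SE), and a gene was called when its Benjamini-Hochberg adjusted p over all tested genes was under 0.05. The microglia were measured in bulk, so fewer cells carrying a transcript and less of it per cell cannot be told apart.

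Cd274, which encodes PD-L1, showed the widest range of the set, and its levels separated the genotypes among the mice that had received cuprizone. In Trem2-/- microglia, Cd274 measured 7.38 in the control, 6.86 at 4 weeks, 7.61 after 4 weeks and recovery, 7.34 at 12 weeks and 7.59 after 12 weeks and recovery, in log2 intensity. WT microglia gave 7.10, 8.51, 7.82, 8.80 and 8.52 in the same order of conditions. The 4 WT arrays with cuprizone or recovery lay above all 5 Trem2-/- arrays, while the WT control lay within the Trem2-/- range. The Trem2-/- minus WT difference was 0.28 in the controls, -1.65 at 4 weeks, -0.21 after 4 weeks and recovery, -1.46 at 12 weeks and -0.93 after 12 weeks and recovery.

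On cuprizone, Cd274 averaged 7.10 ± 0.34 in Trem2-/- microglia and 8.66 ± 0.20 in WT microglia (SD, n = 2 each, 1 array for each feeding time). The difference was -1.56 ± 0.28 (SE), a ratio of 0.34, with an adjusted p of 0.0897 by limma, and it ranked 51 among all genes by p. None of the 7 tested members was called in this comparison, against 0.334% of all genes (1 higher and 35 lower), while 2 members, Cd274 and Lag3, and 4.47% of all genes had an unadjusted p under 0.05. The call of Cd274 depended on the model: with titled feeding time as a block its adjusted p was 0.00283, with labelled feeding time as a block 0.0553, and without either WT recovery array 0.0494. Without a Trem2-/- 4-week or 12-week array it was 0.486 and 0.268, with differences of -1.32 and -1.80.

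**Figure D1:**
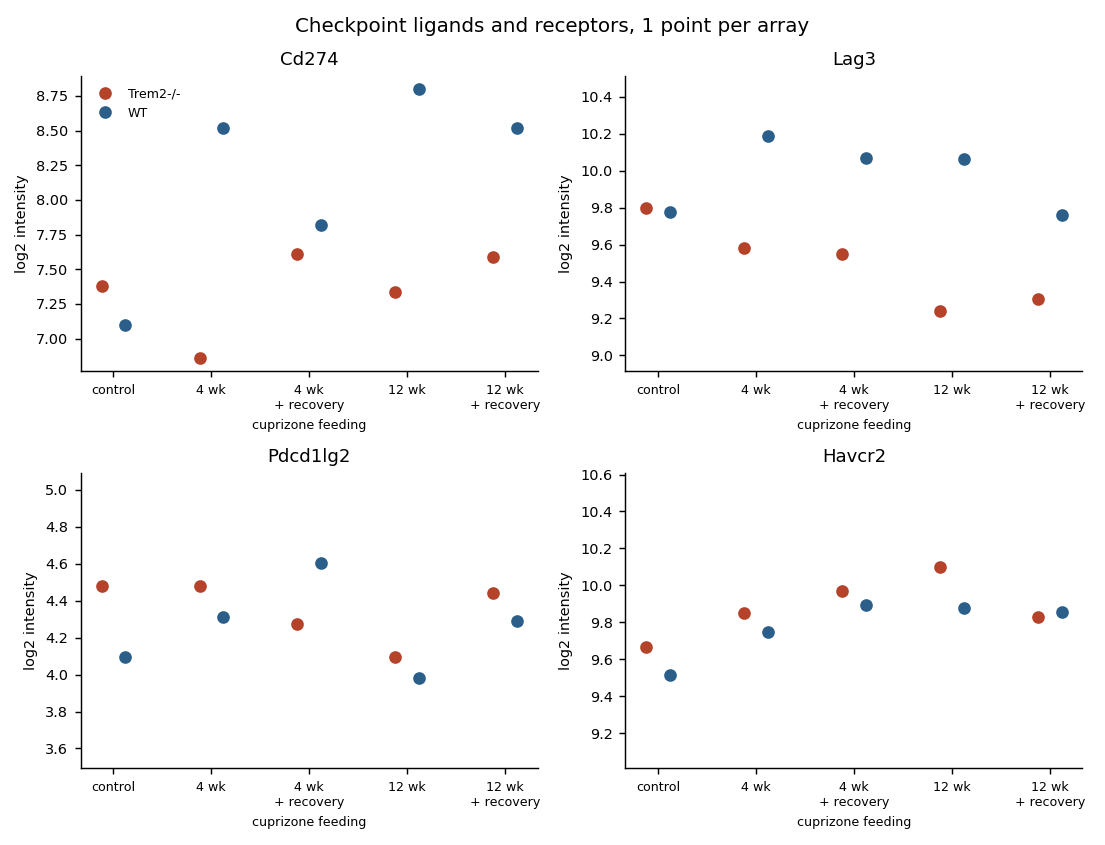
Log2 intensity (y axis) of the checkpoint ligands Cd274 and Pdcd1lg2 and of the receptors Lag3 and Havcr2 on each array, by cuprizone feeding (x axis), with Trem2-/- in red to the left of WT in blue and y ranges that differ by gene. Cd274 on the 4 fed or recovered WT arrays lies at 7.82 to 8.80, above all Trem2-/- arrays (6.86 to 7.61), and Lag3 in the same conditions is higher in WT than in Trem2-/-.

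After recovery, Cd274 averaged 7.60 ± 0.02 in Trem2-/- microglia and 8.17 ± 0.49 in WT microglia (SD, n = 2 each). The difference was -0.57 ± 0.28, with an adjusted p of 1 by limma. No tested member was called in this comparison, against 0.0278% of all genes (3 lower), and 1 member, Lag3, and 1.92% of all genes had an unadjusted p under 0.05. The WT spread came from the arrays of 4 weeks with recovery (7.82) and 12 weeks with recovery (8.52).

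With the 5 conditions matched, the Trem2-/- minus WT difference of Cd274 was -0.79 ± 0.25 (adjusted p 0.267 by limma), and it was lower in Trem2-/- in 4 of 5 conditions. It was -0.53 over the first run alone and -1.19 over the second run alone, both added after the data had been seen. Again 0 of 7 members were called, against 0.259% of all genes (8 higher and 20 lower). Unadjusted p was under 0.05 for 4 members, Lag3, Cd80, Cd274 and Cd86, all lower in Trem2-/-, and for 10.8% of all genes. The median difference of the 7 members was -0.21, beside 0.00 over all genes.

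The response of Cd274 to the diet was estimated with opposite signs in the 2 genotypes. Cuprizone minus control was -0.28 ± 0.34 in Trem2-/- microglia (adjusted p 0.999) and 1.56 ± 0.34 in WT microglia (adjusted p 0.279), by limma. In WT both fed arrays exceeded the control, by 1.41 at 4 weeks and 1.70 at 12 weeks. In Trem2-/- the fed arrays lay below the control, by values of -0.51 at 4 weeks and -0.04 at 12 weeks. No tested member was called in either genotype, against 0% of all genes in Trem2-/- and 0.148% in WT (16 higher). Unadjusted p was under 0.05 for 0 members in Trem2-/- and 100 genes in all, and for 1 member, Cd274, and 471 genes in WT. With titled feeding time as a block, the WT response of Cd274 was 1.38 with an adjusted p of 0.0309. With labelled feeding time as a block, which counts the array of conflicting labels as 4 weeks, it was 1.40 and was not called (adjusted p 0.138). The 2 responses differed by -1.83 ± 0.48, with an unadjusted p of 0.00467 and an adjusted p of 1 by limma. In that test of the difference 0 of 7 members were called, against 0.00927% of all genes (1 lower), and 1 member and 1.47% of all genes had an unadjusted p under 0.05. On simulated data the same test called 0% of genes shifted by 2 log2 units, so its lack of a call decides nothing. Border macrophage markers had higher values on cuprizone than in the control for 9 of 9 genes in both genotypes, with a median difference of 1.18 and 0 genes called by limma in Trem2-/- (1 with an unadjusted p under 0.05), and of 0.66 and 1 gene called in WT. They summed to 4017 at 4 weeks and 2065 at 12 weeks in Trem2-/- microglia on cuprizone, against 1275 in the Trem2-/- control, and to 4586 and 2043 in WT microglia on cuprizone, against 1802 in the WT control, in linear intensity. Monocyte markers summed to 276.0 at 4 weeks and 111.5 at 12 weeks in Trem2-/- microglia on cuprizone, against 221.1 in the Trem2-/- control. In WT microglia on cuprizone they summed to 474.1 and 157.7, against 208.1 in the WT control. The part of border macrophages and monocytes in the Cd274 values was not tested.

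After recovery, Cd274 lay above its cuprizone level in Trem2-/- arrays and below it in WT arrays, without a call. Recovery minus cuprizone was 0.75 at 4 weeks and 0.25 at 12 weeks in Trem2-/-, and -0.70 and -0.28 in WT. The mean difference was 0.50 ± 0.28 in Trem2-/- (adjusted p 1) and -0.49 ± 0.28 in WT (adjusted p 0.999), by limma. No member was called in either genotype or over both matched, against 0% of all genes in each of the 3 comparisons. Unadjusted p was under 0.05 for 0 members in each, and for 64 genes in Trem2-/-, 295 in WT and 597 matched over genotype and feeding time. The difference between the 2 recovery responses, a comparison added after the data had been seen, was 0.99 ± 0.27 for Cd274, with an unadjusted p of 0.00588 and an adjusted p of 0.683. It called 0 of 7 members and 0% of all genes, and 1 member and 545 genes had an unadjusted p under 0.05.

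The genes whose pattern over the 10 arrays was most like that of Cd274 were Ifi30 (Pearson r 0.97), which encodes a lysosomal thiol reductase used in antigen processing, Egln3 (r 0.96), a prolyl hydroxylase of the oxygen-sensing pathway, and Src (r 0.96), a tyrosine kinase. These correlations describe 10 arrays that share genotype, diet and run. Egln3 measured 3.84, 3.69, 4.29, 4.21 and 4.29 on the Trem2-/- arrays, in the order of conditions used above, and 3.28, 5.91, 4.50, 6.56 and 5.43 on the WT arrays. Its 2 WT arrays on cuprizone were the highest of the 10. On all Trem2-/- arrays, the WT control and the WT array of 4 weeks with recovery, Egln3 lay under the table median of 5.27. It passed the level filter only through WT arrays where Cd274 was also high, so its likeness to Cd274 is partly set by that filter.

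Pdcd1lg2, which encodes PD-L2, measured 4.48, 4.48, 4.28, 4.09 and 4.44 on the Trem2-/- arrays and 4.09, 4.31, 4.60, 3.98 and 4.29 on the WT arrays, in the order control, 4 weeks, 4 weeks and recovery, 12 weeks, 12 weeks and recovery. The genotypes overlapped. All values lay under the table median of 5.27. No ratio is given for a probe at that level, and its log2 differences in the figures and flagged results are described without a test.

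Lag3 lay above the table median on every array and, apart from the controls, lower in Trem2-/- microglia. Its log2 intensity was 9.80, 9.58, 9.55, 9.24 and 9.31 on the Trem2-/- arrays, in the same order. On the WT arrays it was 9.77, 10.19, 10.07, 10.06 and 9.76. The control arrays of the 2 genotypes differed by 0.02, and the other 4 differences were -0.61 at 4 weeks, -0.52 after 4 weeks and recovery, -0.82 at 12 weeks and -0.45 after 12 weeks and recovery. The genotypes overlapped only through the Trem2-/- control, which exceeded the WT control and the WT array of 12 weeks with recovery.

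Matched over conditions, Lag3 was -0.48 ± 0.12 in Trem2-/- minus WT, a ratio of 0.718, with an adjusted p of 0.179 by limma. Without either control array the pair of controls leaves the match, and the difference was -0.60 with an adjusted p of 0.041. Lag3 on cuprizone alone differed by -0.72 ± 0.21 (adjusted p 0.616), and after recovery by -0.49 ± 0.21 (adjusted p 1). Its cuprizone minus control value was -0.39 ± 0.26 in Trem2-/- and 0.35 ± 0.26 in WT. Neither was called, and the difference of the 2 responses, -0.74 ± 0.37, had an adjusted p of 1.

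Havcr2, which encodes TIM-3, had the narrowest range of the set, 0.59 log2 units over the 10 arrays. It measured 9.66, 9.85, 9.97, 10.10 and 9.83 on the Trem2-/- arrays and 9.51, 9.75, 9.89, 9.88 and 9.85 on the WT arrays. The ranges overlapped, and the lowest array of each genotype was its control. The matched genotype difference was 0.11 ± 0.09 (adjusted p 0.713 by limma), and cuprizone minus control was 0.31 ± 0.23 in Trem2-/- and 0.30 ± 0.23 in WT, with adjusted p values of 0.999 and 0.998.

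**Figure D2:**
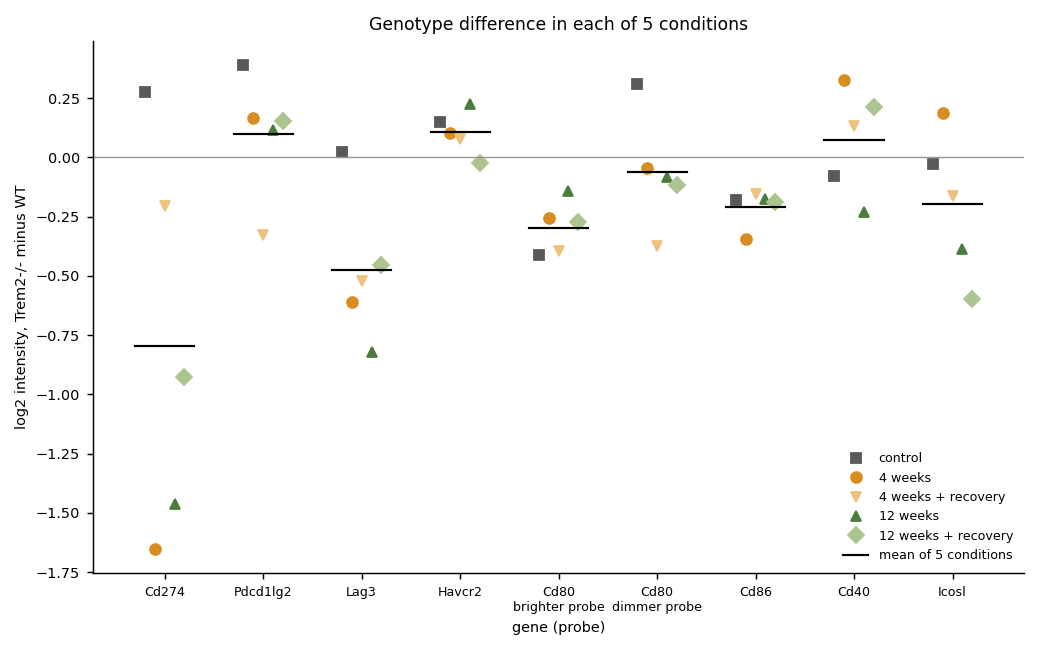
Trem2-/- minus WT difference in log2 intensity (y axis) for each of the 9 probes (x axis), with 1 symbol per condition and a bar at the mean of the 5 conditions. Cd274 spreads from 0.28 in the controls to -1.65 at 4 weeks, Lag3 lies at -0.45 or lower in all conditions except the controls, and the tested probe of Cd80 and Cd86 lie below 0 in all 5.

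Partners of the inhibitory receptors were read from a list of ligands and relatives of Havcr2 and Lag3, of which 5 of 8 genes were tested. In cuprizone-fed mice 1 of the 5, Lgals3, was called and was lower in Trem2-/- microglia. Lgals3 encodes galectin-3, a carbohydrate-binding protein reported as a LAG3 ligand. It measured 6.88 at 4 weeks and 6.30 at 12 weeks in Trem2-/- microglia, against 9.35 and 9.18 in WT microglia. The difference was -2.67 ± 0.26 (adjusted p 0.00663 by limma), and the list's median was -0.08. In WT, cuprizone minus control was 2.51 ± 0.32 for Lgals3 (adjusted p 0.0356), again the 1 gene called of the list, while in Trem2-/- it was -0.09 ± 0.32 (adjusted p 0.999). Matched over conditions, 0 of 5 were called by limma and 1 had an unadjusted p under 0.05. MHC class II genes, which encode the best known LAG3 ligands, had lower values in Trem2-/- for 5 of 5 tested genes in the matched comparison, with a median of -0.44. By limma 0 were called and 4 had an unadjusted p under 0.05.

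Counter-receptors on T cells, such as the genes of ICOS and PD-1, passed the level filter for 5 of 16 genes. By limma 0 of the 5 were called in any of the 11 comparisons, with 0 or 1 gene at an unadjusted p under 0.05 in each, and the median was -0.12 for the matched genotype comparison and 0.03 for feeding time.

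Cd80 and Cd86, the ligands of CD28, were both lower in Trem2-/- than in WT microglia in each of the 5 conditions when Cd80 was read by its brighter probe. That probe measured 7.16, 7.38, 7.36, 7.49 and 7.49 on the Trem2-/- arrays and 7.57, 7.64, 7.75, 7.64 and 7.76 on the WT arrays, in the order control, 4 weeks, 4 weeks and recovery, 12 weeks, 12 weeks and recovery. The ranges did not overlap. The matched difference was -0.30 ± 0.09, a ratio of 0.814, with an adjusted p of 0.251 by limma.

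The dimmer probe of Cd80 gave another pattern. It measured 7.24, 6.82, 7.35, 7.48 and 7.69 on the Trem2-/- arrays and 6.94, 6.86, 7.73, 7.56 and 7.81 on the WT arrays. The genotypes overlapped almost fully, and the control array was higher in Trem2-/-. Its mean difference over the 5 conditions was -0.06. The 2 probes therefore disagreed on the size of the genotype difference, and the Cd80 result rests on 1 probe. They also disagreed on cuprizone minus control in Trem2-/-, with 0.28 by the brighter probe and -0.10 by the dimmer, neither called.

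Cd86 measured 9.17, 9.14, 9.44, 9.63 and 9.45 on the Trem2-/- arrays and 9.36, 9.49, 9.60, 9.80 and 9.64 on the WT arrays. The ranges overlapped, and both genotypes were highest at 12 weeks. Within each condition Trem2-/- lay lower, by differences between -0.35 at 4 weeks and -0.15 after 4 weeks and recovery. The matched difference was -0.21 ± 0.09 with an adjusted p of 0.417 by limma. Cuprizone minus control was 0.21 ± 0.27 in Trem2-/- and 0.29 ± 0.27 in WT, not called in either.

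**Figure D3:**
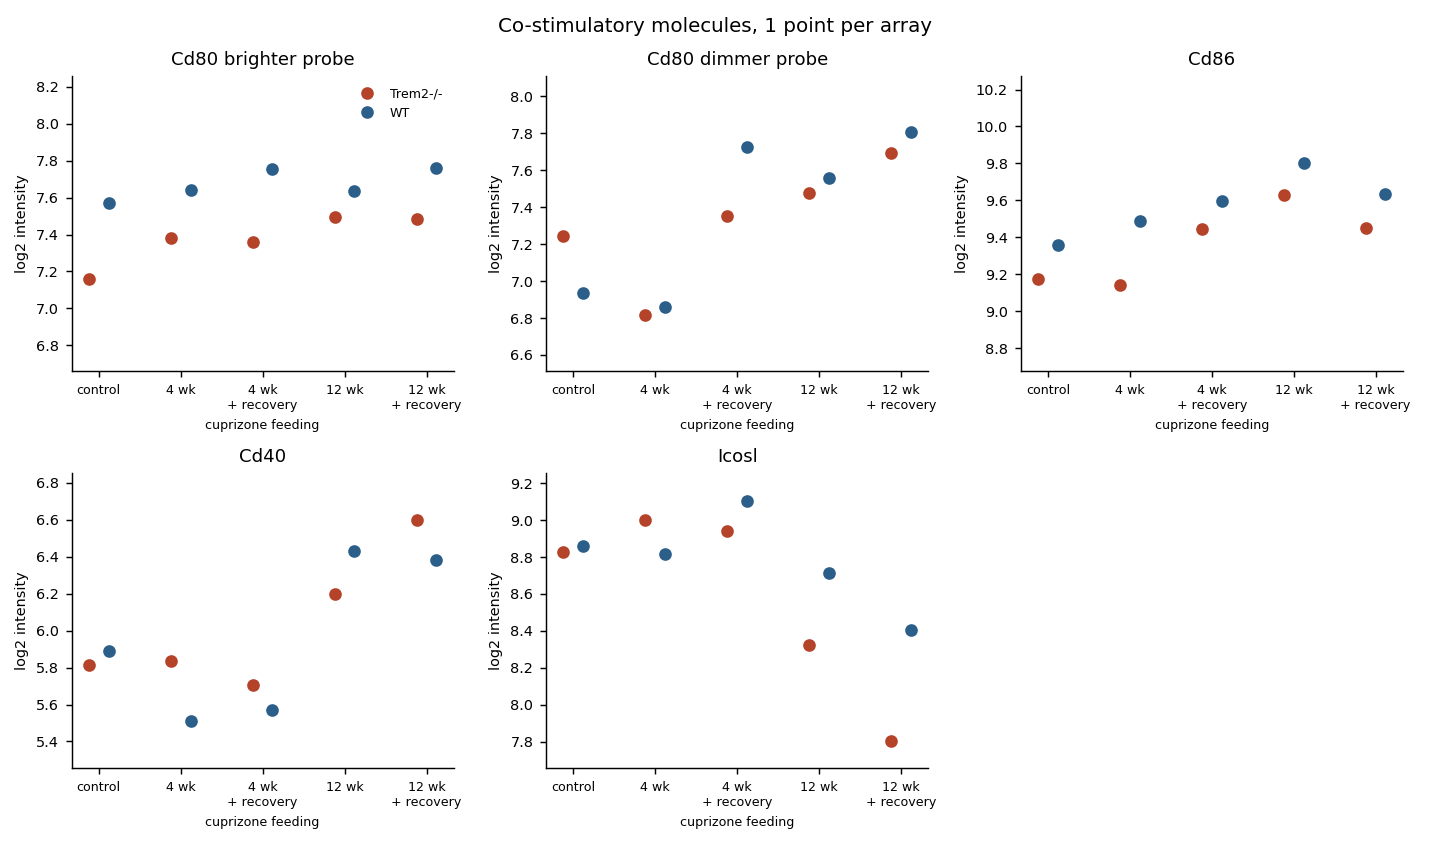
Log2 intensity (y axis) of both Cd80 probes, Cd86, Cd40 and Icosl on each array, by cuprizone feeding (x axis), with Trem2-/- in red to the left of WT in blue and y ranges that differ by panel. The brighter Cd80 probe separates the genotypes (7.16 to 7.49 in Trem2-/-, 7.57 to 7.76 in WT), and the 4 arrays titled 12 weeks stand apart from the other 6 for Cd40 and Icosl.

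Feeding time set apart Cd40 and Icosl. Of the 7 tested members, 2 were called in the 12 minus 4 week comparison, Cd40 higher and Icosl lower, which stands beside 20.3% of all tested genes called (887 higher and 1307 lower). Unadjusted p was under 0.05 for 4 members and for 36.6% of all genes. The share of members called was near that of all genes. Feeding time and run of sample numbers cannot be told apart in any of these values.

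Cd40 measured 5.81, 5.84, 5.71, 6.20 and 6.60 on the Trem2-/- arrays and 5.89, 5.51, 5.57, 6.43 and 6.38 on the WT arrays, in the same order of conditions. The 4 arrays titled 12 weeks lay above the other 6, controls included, and the genotypes overlapped. The probe stayed close to the table median of 5.27. The 12 minus 4 week difference was 0.36 on cuprizone and 0.89 after recovery in Trem2-/- microglia, and 0.92 and 0.81 in WT microglia. It came to 0.75 ± 0.13 over the 4 pairs, a ratio of 1.68, with an adjusted p of 0.00444 by limma, and it was called under all 17 alternatives run, with differences from 0.50 to 0.87.

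Icosl ran the other way. Its level was 8.83, 9.002, 8.94, 8.33 and 7.81 on the Trem2-/- arrays and 8.86, 8.82, 9.10, 8.71 and 8.40 on the WT arrays. The 4 arrays titled 12 weeks lay below the other 6, and the lowest was Trem2-/- after 12 weeks and recovery. The differences were -0.68 on cuprizone and -1.14 after recovery in Trem2-/-, and -0.10 and -0.70 in WT. Over the 4 pairs the difference was -0.65 ± 0.16, a ratio of 0.635, with an adjusted p of 0.0187 by limma. The call was lost without any 1 of the 4 Trem2-/- arrays that had received cuprizone (adjusted p 0.0596 or 0.0849) and with the array of conflicting labels counted as 4 weeks (0.129). The genotype difference of Icosl, matched over conditions, was -0.20 ± 0.12 with an adjusted p of 0.601.

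The other members did not pass the test between feeding times. Cd274 differed by 0.36 ± 0.13 (adjusted p 0.0846), Lag3 by -0.25 ± 0.11 (0.115), Cd86 by 0.21 ± 0.12 (0.237), Cd80 by 0.06 ± 0.10 (0.715) and Havcr2 by 0.05 ± 0.11 (0.78), all by limma. Lag3 was lower at 12 weeks in all 4 pairs, and Cd86 was higher in all 4, by 0.49 and 0.01 in Trem2-/- and 0.31 and 0.04 in WT, on cuprizone and after recovery. The dimmer Cd80 probe gave 0.44 with an adjusted p of 0.0399, where the brighter probe gave no call.

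**Figure D4:**
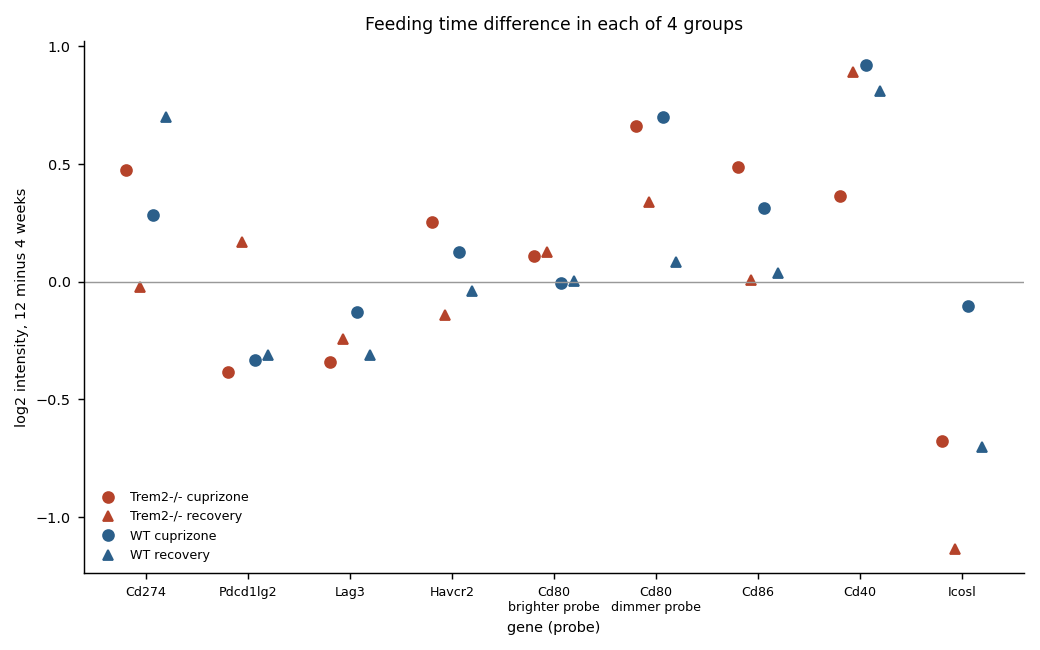
Difference in log2 intensity between 12 and 4 weeks of feeding (y axis) for each probe (x axis), with 1 symbol for each pair of arrays of the same genotype and phase. All 4 pairs lie above 0 for Cd40 (0.36 to 0.92) and below 0 for Icosl (-1.14 to -0.10) and Lag3, and the 4 pairs of Cd86 lie above 0, between 0.01 and 0.49.

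Over the 10 arrays, Cd40 and Icosl correlated with Pearson r of -0.82, a description of arrays that share their run. The genes most like Icosl were Suclg1 (r 0.97), a subunit of a citric acid cycle enzyme, Csnk1e (r 0.95), a casein kinase, and Rnf187 (r 0.95).

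Several cell type markers also differed between feeding times and runs, though not all had controls that sided with the 4-week arrays, as for Cd40 and Icosl. In the 12 minus 4 week comparison, which called 20.3% of all genes, 6 of 6 tested neutrophil markers were lower. Their median was -3.71, with S100a8 at -6.63 ± 0.59 (adjusted p 0.000267 by limma). Monocyte markers were lower for 4 of 4 tested genes, with a median of -1.40. Border macrophage markers were lower for 9 of 9, 8 of them called, with a median of -1.15. Microglia markers were called lower for 3 of 7, with a median of -0.17, beside -0.04 over all genes. Summed linear intensity of the monocyte markers was 105 to 158 at 12 weeks and 186 to 474 at 4 weeks. For border macrophage markers it was 1807 to 2065 at 12 weeks and 3895 to 4586 at 4 weeks. Their controls, at 1802 in WT and 1275 in Trem2-/-, lay below the 12-week arrays. The monocyte marker controls, at 208 in WT and 221 in Trem2-/-, lay within the range of the 4-week arrays. The part of neutrophils, monocytes and border macrophages in the Cd40 and Icosl values was not tested. In the matched genotype comparison 0 markers of neutrophils, monocytes, border macrophages or microglia were called by limma. Unadjusted p was under 0.05 there for 1, 2, 2 and 0 of them in that order, and the endothelial gene Pecam1 was higher in Trem2-/- microglia by 0.63 ± 0.09 (adjusted p 0.0236). Flt1, the other endothelial gene tested, went the other way, at -0.99 ± 0.24 in the same comparison (adjusted p 0.157) and at -1.64 ± 0.23 on cuprizone, where it was called lower in Trem2-/- (adjusted p 0.029). Flt1 lay under the table median on all Trem2-/- arrays and the WT control, and passed the level filter only through the other WT arrays. The endothelial markers Cldn5, Cdh5 and Kdr lay under that median on every array and were not tested.

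Of 10 tested genes of CD40 signalling, 8 were higher at 12 than at 4 weeks and 2 were lower, with 6 called higher and 0 called lower. That comparison called 20.3% of all genes (887 higher and 1307 lower) and cannot be told apart from run. Birc3, an inhibitor of apoptosis induced by NF-κB, rose by 0.87 ± 0.11 (adjusted p 0.00143), Nfkb2, a subunit of the non-canonical NF-κB pathway, by 0.73 ± 0.10 (0.00196), and its partner Relb by 0.67 ± 0.11 (0.00451), all by limma. Birc3 measured 9.19 and 9.15 at 12 weeks and 8.33 and 8.08 at 4 weeks in Trem2-/-, and 8.90 and 8.86 at 12 weeks and 7.97 and 8.22 at 4 weeks in WT, each on cuprizone and then after recovery. The arrays of the 2 feeding times did not overlap, but the Trem2-/- control measured 8.53 and the WT control 8.01. Rel, Traf6 and Tnfaip3 also passed, at 0.62, 0.45 and 0.37. The adaptor Traf5 measured -0.39 ± 0.13 and did not pass (adjusted p 0.0608). The list's median was 0.41. In the matched genotype comparison the same list had 5 genes higher and 5 lower, 0 called by limma, 1 with an unadjusted p under 0.05 and a median of 0.04.

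**Figure D5:**
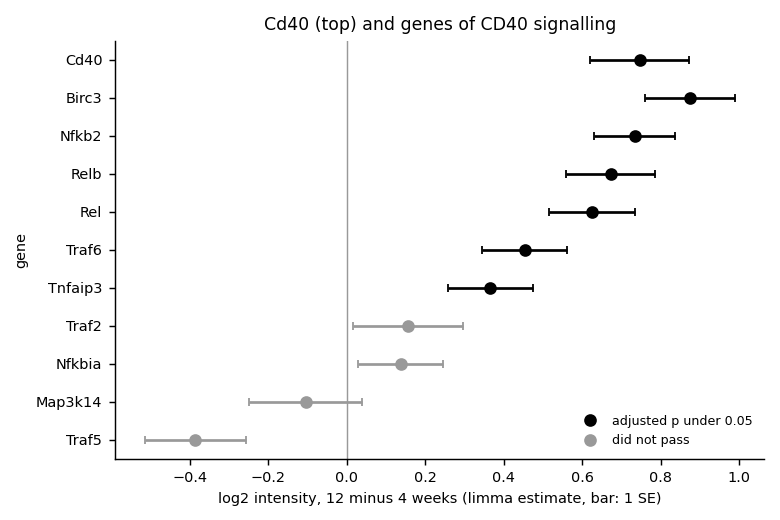
Estimated log2 difference between 12 and 4 weeks of feeding (x axis, bars 1 SE) for Cd40, at the top, and the 10 tested genes of CD40 signalling (y axis), in black where the adjusted p was under 0.05. Cd40 lies at 0.75, and the 6 genes in black lie between 0.37 and 0.87.

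Single genes of other co-stimulatory families were called between feeding times, where 20.3% of all genes were called. Among TNF superfamily partners of T cells, 2 of 8 genes were tested and Tnfsf9, the ligand of 4-1BB, rose by 1.60 ± 0.24 (adjusted p 0.00276). It measured 8.13 on cuprizone and 8.37 after recovery at 12 weeks in Trem2-/-, against 6.62 and 7.65 at 4 weeks, and 10.17 and 9.78 at 12 weeks in WT, against 8.63 and 7.16 at 4 weeks. Tnfsf9 was thus lower in Trem2-/- at both feeding times on cuprizone, and higher after 4 weeks and recovery. In Trem2-/- minus WT, 1 of the 2 tested genes had an unadjusted p under 0.05 by limma on cuprizone. Matched over conditions, 1 of the 2 did, beside 4.47% and 10.8% of all genes. Among other B7 and butyrophilin ligands, 2 of 6 were tested and Vsir, the checkpoint ligand VISTA, fell by 0.53 on the log2 scale (SE 0.11, adjusted p 0.0108). Among other contact signals of myeloid cells, Pvr and the adhesion ligand Icam1 rose by 0.82 ± 0.15 and 0.78 ± 0.12, and the inhibitory receptors Cd200r1 and Lair1 had differences of -0.61 ± 0.17 and -0.52 ± 0.11, which made 4 called of 7 tested (2 in each direction). Lgals9, the galectin-9 ligand of TIM-3, was the 1 gene called of 5 in its list, a share like that of all genes, at -0.62 ± 0.11 (adjusted p 0.00536).

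Interferon gamma signalling, the pathway best known to induce Cd274, had 9 tested genes. Between feeding times, where 20.3% of all genes were called, 2 were called higher and 1 lower at 12 weeks, with a median of -0.13. Jak2 and Stat3 were higher by 0.61 ± 0.11 and 0.39 ± 0.12, and the receptor gene Ifngr1 was at -0.47 ± 0.11. On cuprizone, where Cd274 differed most between genotypes, 0 of these 9 genes were called in Trem2-/- minus WT by limma and 0 had an unadjusted p under 0.05, with a median of -0.04. MHC class II genes were called lower at 12 than at 4 weeks for 3 of 5 tested genes, namely H2-Aa (-0.82 ± 0.18), H2-Eb1 (-0.82 ± 0.16) and H2-DMa (-0.68 ± 0.11). H2-Eb1 measured 7.65 on cuprizone and 7.68 after recovery at 12 weeks in Trem2-/-, against 8.69 and 8.84 at 4 weeks, while in WT it was 8.60 and 7.70 at 12 weeks, against 8.79 and 8.57 at 4 weeks.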

How the data were processed

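The authors deposited a table of intensity on a linear scale. How they summarized probes, corrected background and normalized the deposited intensity was not given by the sources at hand, and column medians lay between 37.6 and 39.3. No column of another sample was present (0 columns). Values were put on the log2 scale from the deposited table without further scaling. Probe genes came from the platform annotation: 21259 probes named 1 gene, 1274 several and 2034 were not listed. The brightest probe stood for a gene, and genes with at least 2 arrays above the table median were tested with limma 3.58.1 in R 4.3.3 (lmFit, eBayes, Benjamini-Hochberg over 10792 genes). Fits used 6 group means of genotype and phase, or matched the arrays by condition, by genotype and feeding time, or by genotype and phase. Levels near the table median are close to background, which can compress differences. The procedure was tested on simulated data with 200 genes shifted. Noise was drawn independently from each gene's spread within the 6 groups, without effects of condition. For the matched genotype comparison, every Trem2-/- array was shifted equally, control included. Cd274 and Lag3 differed by condition instead, so the shares for that comparison do not carry over to them. Of genes shifted by 1 and 2 log2 units, the matched genotype comparison called 72% and 97%. The genotype comparison on cuprizone called 31% and 86%. Cuprizone minus control called 9% and 62% in Trem2-/- and 10% and 59% in WT. The difference of the 2 cuprizone responses called 0% and 0%, so the lack of calls in that test decides nothing.

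The members and the gene lists were chosen with earlier results of these data known. Every member was named, and from each list the called genes, up to 3 by size; the genes named beyond that were chosen after their values were seen. Alternatives changed the probe rule, filter, normalization, added constant, prior, feeding-time block and label, and left out each array; leaving out an array can leave a group with 1 array, which was then assumed to vary like the others. Figures were drawn with matplotlib 3.10.9.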

Additional observations from a re-analysis of the deposited data

Results flagged for a closer look

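Cd40 differed by 0.75 log2 units between 12 and 4 weeks of feeding, by a test of that difference, and was higher in 4 of 4 pairs. Icosl differed by -0.65 in the same test and was lower in 4 of 4 pairs. For Pdcd1lg2, both recovery arrays lay below the control in Trem2-/- microglia (-0.21 and -0.04) and above it in WT microglia (0.51 and 0.20), a gap of -0.48 between the mean responses. That difference was not tested, and all its values lay under the table median.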

How the results depend on the processing

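Among 11 counts of called members, 195 of 207 recomputed counts stayed within 1.5 times of the reported one. Only the feeding time comparison had a reported count above 0. Counts of 0 could move only by gaining a call, and some came from comparisons that called 0% of all genes. In the matched fits, leaving out either array of a pair gave the same result, so some recomputed counts repeat. That share therefore says little about stability. Leaving out 1 array gave 0 to 1 called members in the matched genotype comparison, where Lag3 was called without either control array, and 0 to 1 in the cuprizone genotype comparison, where Cd274 was called without either WT recovery array. With titled feeding time as a block, 1 member, Cd274, was called in the cuprizone genotype comparison and 1, again Cd274, in WT cuprizone minus control. Between feeding times, leaving out 1 array gave 1 to 2 called members, a trended robust prior gave 4 (Cd274 and Lag3 beside Cd40 and Icosl), and counting the array of conflicting labels as 4 weeks gave 1 (Cd40). That last setting called 186 genes in all, against 2194. Leaving out a Trem2-/- recovery array called 1064 and a WT cuprizone array 1229. Over all genes, the matched genotype comparison called 28, against 44 with no filter, 53 with 32 added before log2, 62 with the robust prior, 8 to 103 with 1 array left out, 6 in the first run and 60 in the second. The cuprizone genotype comparison called 36, against 153 with the titled block, 55 with the labelled block and 0 to 42 with 1 array left out (0 without the Trem2-/- 12-week array). WT cuprizone minus control called 16, against 105, 37 and 2 to 16. The recovery genotype comparison called 3, against 10 and 8 with the blocks and 0 without either WT or the 12-week Trem2-/- recovery array. The other comparisons, with 0 or 1 called, gave 0 to 13. The causes were not tested.

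Of the 32 member differences at least as large as their SE, 2 reversed in 604 recomputed values: Cd80 in Trem2-/- cuprizone minus control, -0.10 by the dimmer probe, and Icosl in recovery minus cuprizone matched over genotype and feeding time, 0.11 over the first run only. Among the same 604 values, 5 lost their call and 8 gained a call. The 45 differences smaller than their SE changed sign in 81 of 845 recomputed values, and another 1 gained a call. Pdcd1lg2 and Cd40 lie under or near the table median, where signal over background limits what can be seen. The settings by run and by the dimmer Cd80 probe were chosen after seeing the data.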
